A study of Mus musculus with 5 samples.

Results

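Ciliated airway cells are the epithelial cells whose beating cilia move mucus along the conducting airways of the lung. Here they were barcodes selected on their own RNA: at least 3 of the 6 markers Foxj1, Tppp3, Dynlrb2, Rsph1, Tmem212 and Ccdc153 had a count, and Sftpc, the surfactant gene of alveolar type II cells, held under 2% of counts. The rule was applied to barcodes with more than 700 and fewer than 8000 genes and under 5% mitochondrial counts. The rule chose 144 of the 12707 filtered cells of 4 libraries, namely 58 from air pnd7, 6 from hyperoxia pnd7, 42 from air pnd60 and 38 from hyperoxia pnd60 (pnd, postnatal day).

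Lungs came from C57BL/6J mice that breathed either air or 95% O2 for the first 3 days of life and then recovered in room air until pnd7 or pnd60. Each of the 4 groups was 1 library of droplet-based single-cell 3′ counts from dissociated lung. With no replicate libraries there is no test between groups, and each interval given here is a 95% interval that covers counting error only. The number of mice behind each of these 4 libraries was not given in the sources used here. In the remaining library of the series, of hyperoxia pnd7 lung cells sorted on C12FDG, a stain for senescence-associated β-galactosidase activity, and made from pooled suspensions of several lungs, 0 of 493 filtered cells met the rule, which allows a share of up to 0.609% at a floor of 3 counts (Clopper-Pearson upper limit 0.745%).

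A motile cilium is built on an axoneme, a cylinder of microtubule doublets around a central pair. Outer and inner dynein arms slide the doublets against each other, radial spokes and nexin links keep the sliding in register, and intraflagellar transport carries parts to the tip. Foxj1 and the RFX factors (Rfx2, Rfx3) are transcription factors known to switch on this set of genes, and Mcidas, Gmnc, Ccno and Deup1 act earlier, while a precursor cell multiplies its centrioles.

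RFX factors bind the X-box, a pair of inverted letter groups, so the promoters of the axonemal genes were searched for it as a description of what these genes share. In RefSeq sequence of the GRCm38.p6 build, 250 bases before each gene's start were read on both strands. The paired letters were GTTNCC followed by AAC, with either any 5 letters between them or 4 of which the third is G. They were found in 17.1% of the 76 promoters of axonemal genes (68 of 84 genes matched the table) against 1.70% of all 32851 promoters. The first letter group alone, GTTGCC, which the paired letters can contain, was in 32.9% of axonemal promoters, in 30.4% of 23 promoters of intraflagellar transport genes, in 0 of 9 promoters of club cell genes and in 10.4% of all promoters. The forkhead letters TGTTTAC were in 2.63% of axonemal promoters against 3.17% of all. Of the 6 rule markers 3 had an entry and 2 of these held the paired letters. The windows below are those of the 2 markers (Dynlrb2, a dynein light chain, and Ccdc153, also called Drc12) and of 6 axonemal genes with different roles. Capitals mark the matched letters, and a match is no proof of binding.
Dynlrb2: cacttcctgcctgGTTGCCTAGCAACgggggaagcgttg
Ccdc153: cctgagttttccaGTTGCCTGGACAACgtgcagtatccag
Dnaic2: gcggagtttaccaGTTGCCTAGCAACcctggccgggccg
Ccdc151: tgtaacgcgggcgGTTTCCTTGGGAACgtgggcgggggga
Dnah9: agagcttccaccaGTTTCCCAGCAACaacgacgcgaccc
Hydin: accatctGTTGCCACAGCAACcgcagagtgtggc
Spag16: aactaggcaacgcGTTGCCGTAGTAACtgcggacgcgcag
Tekt2: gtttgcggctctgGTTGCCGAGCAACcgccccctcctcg

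These windows lie at chr8:116504951-116504989 on the plus strand (Dynlrb2), chr9:44240512-44240551 on the plus strand (Ccdc153), chr11:114727373-114727411 on the minus strand (Dnaic2, an outer arm intermediate chain) and chr9:22002642-22002681 on the minus strand (Ccdc151, an outer arm docking protein). The others lie at chr11:66168608-66168646 on the minus strand (Dnah9, an outer arm heavy chain), chr8:110266943-110266976 on the minus strand (Hydin, of the central pair), chr1:69826854-69826893 on the plus strand (Spag16, of the central pair) and chr4:126325692-126325730 on the plus strand (Tekt2, a tektin of the doublet wall). All 8 are promoter sequence upstream of the annotated start.

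The air pnd7 library stood apart from the other 3 in what its ciliated barcodes held. Counts from 69 marker genes of 9 other cell type lists (club, type II, type I, basal and neuroendocrine, mesothelial, endothelial, mesenchymal, immune and red blood cells) made up a median of 16.8% of counts there (range 0.332 to 43.9%). The medians were 0.827% at hyperoxia pnd7, 0.960% at air pnd60 and 0.876% at hyperoxia pnd60. The median air pnd7 barcode also held few counts, 2392 against 15534.5, 7237.5 and 11101.5 in the same order. Counts from the 84 genes of the axonemal lists ran at a median of 6.70 per 1000 counts at air pnd7, against 18.1, 21.4 and 20.6 per 1000 in the other libraries. Cells outside the rule had medians of 0.153, 0.168, 0 and 0 per 1000. The ciliated medians of all 4 libraries stood above these, that of air pnd7 by the least. At air pnd7 the ranges overlapped, with 0.291 to 22.2 per 1000 in ciliated barcodes and up to 9.50 in other cells. The deepest air pnd7 barcode (44746 counts) was the one at 0.291, with 32.6% of its counts from club cell genes. Ranges also overlapped at air pnd60, where other cells reached 5.40 per 1000. A single ciliated barcode, of air pnd60, had no axonemal count.

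Most of the foreign counts at air pnd7 came from hemoglobin and club cell genes. In a matched depth range of 1614.5 to 3843.5 counts, hemoglobin held a median of 9.74% in 28 ciliated barcodes and 10.3% in 714 other cells of that library. Club cell genes, the products of the secretory cells that neighbour ciliated cells in the airway, held 7.50% in the ciliated barcodes and 0% in the other cells. At that depth hemoglobin was about as high in the other cells of the library, and club cell genes were not. At air pnd7, 55 of the 58 barcodes had counts of 3 or more of the 12 club cell genes and 58 of 58 had counts of 3 or more of the 5 red blood cell genes.

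The main counts below are therefore given for all ciliated barcodes and for the 81 in which marker genes of other cell types held under 5% of counts, called low-admixture cells, and single genes and lists are given for the latter unless stated. These were 6, 6, 36 and 33 cells in the order air pnd7, hyperoxia pnd7, air pnd60 and hyperoxia pnd60, which is also the order of all series of 4 values below. The remaining 63 barcodes (52, 0, 6 and 5) held 65.2%, 0%, 42.7% and 32.8% of the ciliated counts of their libraries. At pnd60 these mixed barcodes were large, with medians of 37885.5 and 37664 counts and 34.5% and 23.6% of them from club cell genes. At air pnd7 they were small, with a median of 2177 counts. Low-admixture cells had axonemal medians between 18.1 and 22.5 per 1000 counts, so their 4 libraries lay close together, as the plot of axonemal counts against admixture shows. Whether mixed barcodes were doublets was not tested: a doublet caller marked 0.0433% and 0.321% of the filtered cells at pnd7 and 3.14% and 3.28% at pnd60. It called no ciliated barcode at pnd7. At pnd60 it called 2 ciliated barcodes in each library, which were 0 of 6 and 1 of 5 mixed barcodes and 2 and 1 low-admixture cells.

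**Figure D1:**
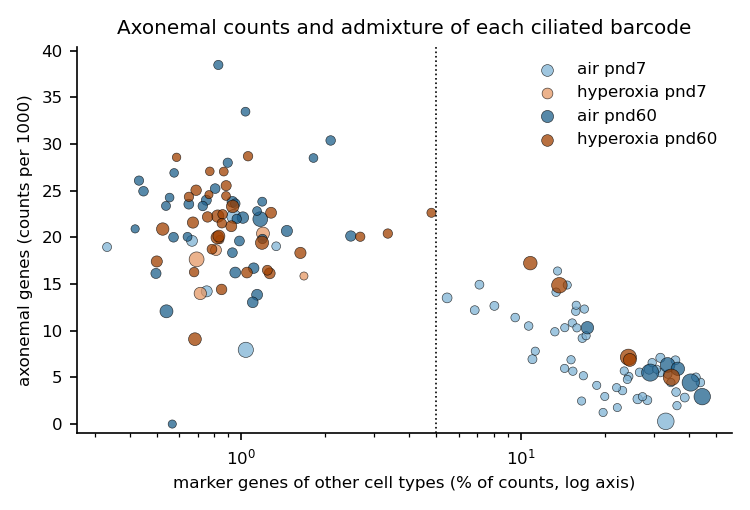
Each point is 1 of the 144 ciliated barcodes, colored by library and larger with more counts, with the percent of its counts from marker genes of other cell types (log axis) against axonemal counts per 1000 counts. Of the 58 air pnd7 points 52 lie right of the dotted line at 5% and mostly below the other libraries, and 6 lie left of it.

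The rule's limits bore mainly on air pnd7. In that library 28 barcodes had counts of just 2 markers, with a median of 1.48 axonemal counts per 1000, and 16 had counts of just 3, with a median of 4.29. In the other libraries barcodes with 2 markers had medians of 0.167 to 0.183 per 1000, and 2 barcodes with just 3 markers, both at air pnd60, had a median of 10.5. The Sftpc limit left out 17, 0, 3 and 2 barcodes, and at air pnd7 the highest share inside it was 1.87% and the lowest outside 2.02%. No barcode sequence was shared between the ciliated cells of any pair of libraries, while 5 to 7 were shared per pair among all barcodes before filtering.

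All 6 markers were among the genes present in nearly every low-admixture cell. These genes chose the cells, so their levels are a description. Tppp3, a tubulin polymerization promoting protein, was at 2418, 2962, 5095 and 5174 CPM (counts divided by the summed counts of the pooled cells, on the usual scale) in the 4 libraries. Foxj1 was at 697, 1136, 1655 and 1435 CPM, Dynlrb2 at 1003, 1648, 927 and 1001 CPM, and Rsph1, a radial spoke protein, at 570, 846, 687 and 657 CPM. Tmem212 was at 919, 1659, 1252 and 1176 CPM and Ccdc153 at 1161, 1448, 1696 and 1570 CPM. Tppp3 was the one marker above 50 CPM in the other cells of the libraries (90.3, 86.1, 200 and 206 CPM).

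The genes that set the 144 barcodes apart from the 12563 other filtered cells are given here as a description. Among 2891 genes with at least 100 counts in ciliated barcodes, 462 were past 8-fold higher there. The 20 with the highest ratio included the dynein heavy chains Dnah3, Dnah10 and Dnah5, the docking protein gene Ccdc151, and Sntn, which codes for sentan of the ciliary tip. Cdhr3, a cadherin-related surface protein known as a receptor of rhinovirus C, was at 533 CPM in ciliated barcodes and 0.333 CPM in other cells. Of the 20, 10 were on a fixed gene list and 6 of those were axonemal. Dcdc5, Ccdc33, Aoc1, Ccdc121, Ttc29, Fam92b, Eno4, Gm19935, Frmpd2 and Ankrd45 were on none.

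The share of ciliated cells at pnd7 turned on the mixed barcodes. All barcodes of the rule made up 2.51% of filtered cells at air pnd7 (95% Clopper-Pearson interval 1.91 to 3.24%) and 0.482% at hyperoxia pnd7 (0.177 to 1.05%). Low-admixture cells made up 0.260% at air pnd7 (0.0955 to 0.565%) against the same 0.482% at hyperoxia pnd7. The first pair of intervals did not overlap, with air higher, and the second pair overlapped, with hyperoxia higher. With hemoglobin left out of the 5% limit, 22 barcodes remained at air pnd7 (0.953%, interval 0.598 to 1.44%) and 6 at hyperoxia pnd7. No direction of the pnd7 difference thus held under each way of counting.

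At pnd60 the shares lay close together. They were 0.955% in air (interval 0.689 to 1.29%) and 0.799% after hyperoxia (0.566 to 1.10%), and 0.819% (0.574 to 1.13%) and 0.694% (0.478 to 0.973%) for low-admixture cells. Both pairs of intervals overlapped, as the plot of shares shows. A share of cells after dissociation also depends on how many cells of the other types were recovered, and that was not tested.

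**Figure D2:**
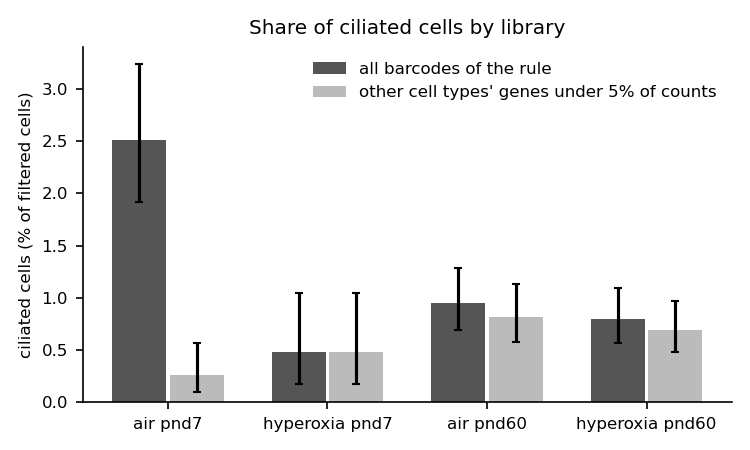
Bars give ciliated cells as a percent of filtered cells in each library, dark for all barcodes of the rule and light for low-admixture cells, with 95% Clopper-Pearson intervals. The dark bar of air pnd7 (2.51%) is the tallest and its light bar (0.260%) the lowest, while the pnd60 bars lie between 0.694 and 0.955%.

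The level of the axonemal program lay closer together in the 4 libraries once the mixed barcodes were set aside. The 84 genes of 5 axonemal lists summed to 15214, 17705, 20857 and 20063 CPM in low-admixture cells and to 257, 218, 214 and 206 CPM in other cells. The order of the pnd7 pair rested on 1 cell. The deepest low-admixture cell of air pnd7 held 37.4% of the counts there with axonemal genes at 7951 CPM, and without the deepest cell of each library, a setting chosen after seeing the data, the sums were 19562, 17743, 20719 and 20110 CPM. With the mixed barcodes the sums were 8979, 17705, 14238 and 16698 CPM, lower where mixed barcodes held more of the counts. Of the 84 genes, 78, 79, 81 and 81 had a count in low-admixture cells.

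By role, inner dynein arm genes were at a higher level at pnd60 than at pnd7 in low-admixture cells. Outer arm genes summed to 1922, 1960, 2780 and 2677 CPM, and inner arm genes to 2048, 2149, 3580 and 3461 CPM. The pnd60 intervals lay above the pnd7 intervals for both lists. Without the deepest cell of each library this held for the inner arm (2582, 2218, 3583 and 3469 CPM) and not for the outer arm (2515, 1827, 2747 and 2715 CPM), where the intervals of air pnd7 and both pnd60 libraries overlapped. With the mixed barcodes the sums were 1051, 1960, 1988 and 2284 CPM for the outer arm, where the hyperoxia pnd7 interval overlapped both pnd60 intervals, and 1205, 2149, 2423 and 2810 CPM for the inner arm, where it overlapped that of air pnd60. Assembly factors, which fold and load the arms in the cytoplasm, summed to 824, 1236, 1238 and 1228 CPM. Radial spoke and central pair genes summed to 3389, 3953, 4514 and 4522 CPM, and nexin link and doublet genes to 7032, 8407, 8744 and 8175 CPM. Intraflagellar transport genes summed to 4941, 5456, 5762 and 5977 CPM and were also present in other cells, at 664, 647, 500 and 504 CPM. Without the deepest cells the order of the pnd7 pair turned, with overlapping intervals, for radial spoke and central pair genes (4405 and 4063 CPM). It also turned for nexin link and doublet genes (9064 and 8481 CPM) and intraflagellar transport genes (5992 and 5270 CPM). Assembly factors kept their order (996 and 1153 CPM).

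**Figure D3:**
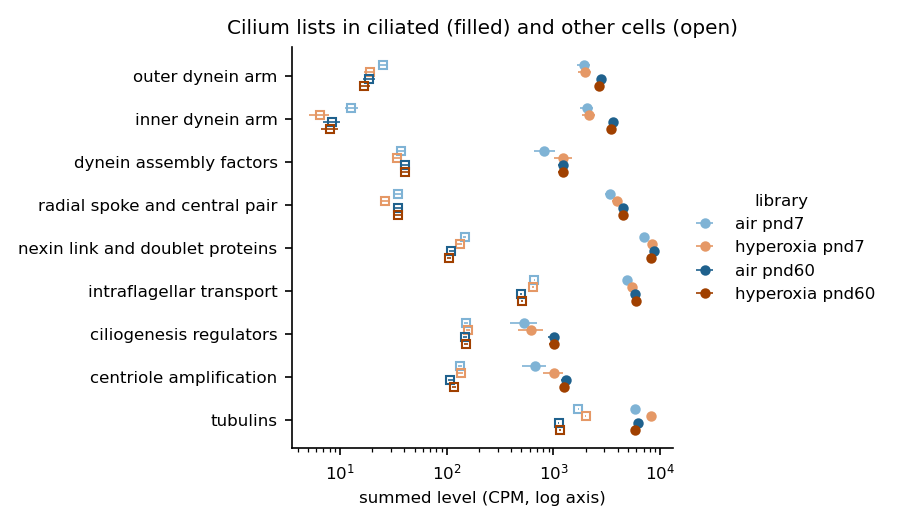
Summed CPM (log axis) of 9 cilium gene lists in low-admixture ciliated cells (filled circles) and in the other filtered cells (open squares), by library, with 95% Poisson intervals. In each list the filled circles lie above the open squares, and the inner dynein arm is at 2048 and 2149 CPM at pnd7 and at 3580 and 3461 CPM at pnd60.

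Later regulators of the program had counts in low-admixture cells of each library, while of the early ones Mcidas and Gmnc had none. The 9 regulators summed to 528, 612, 1005 and 1016 CPM in low-admixture cells. Myb, which acts in the commitment of multiciliated cells, was the most abundant of them, at 264, 189, 366 and 364 CPM, although these 3′ counts were not scaled by gene length. Rfx2 was at 63.3, 55.7, 174 and 146 CPM and Rfx3 at 84.5, 100.2, 205 and 192 CPM. Of the other early factors Ccno had 1, 0, 1 and 5 counts, and Deup1, of the deuterosome on which new centrioles form, had 3, 2, 17 and 17. Cell cycle genes summed to 137, 100, 116 and 95 CPM, against 987, 1265, 367 and 333 CPM in other cells. In all ciliated barcodes the sum at air pnd7 was 1293 CPM, where 1 barcode held 97.3% of the counts of Mki67 and 93.3% of those of Top2a.

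Hyperoxia was first compared with air at pnd7. A gene was tested where both libraries together held at least 50 counts, and was called where its CPM differed by more than 2-fold. In all ciliated barcodes 314 of 1244 genes (25.2%) were called, 208 higher (16.7%) and 106 lower (8.52%) after hyperoxia. This balance turned with the scaling: centred on the median of all genes tested (0.39) the calls were 73 higher and 177 lower, and with totals that left out Sftpc, Scgb1a1 and hemoglobin they were 114 and 143. In low-admixture cells, 6 a group, 72 of 650 genes (11.1%) were called, 45 higher (6.92%) and 27 lower (4.15%). Of the low-admixture calls 35 of the 45 higher and 21 of the 27 lower were also calls of all barcodes. Low-admixture cells are part of all barcodes, and at hyperoxia pnd7 both sets were the same 6 cells. This overlap is therefore in part built in. In other cells 1.67% of 13749 genes were called, from far larger pools. All filtered cells held 16648251 counts in air and 13576172 after hyperoxia, against 272183 and 89804 in ciliated barcodes. With the same minimum of 50 counts, the shares of ciliated and other cells are thus not like for like. In 16 of the 45 and in 22 of the 27 low-admixture calls at least 50% of the counts of the higher library came from 1 cell. Without the deepest low-admixture cell of each library, 24 of 344 genes were called, 22 higher and 2 lower.

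Axonemal genes did not pass 2-fold at pnd7 in low-admixture cells. None of 24 tested was called, against 11.1% of all genes, and their median log2 ratio was 0.15 beside 0.15 for all genes tested. Without the deepest cell of each library none of 11 was called, beside 6.98% of all genes, and the median was -0.25 beside 0.10. The highest was Cfap20, a doublet protein, at 579 CPM after hyperoxia and 296 CPM in air (log2 ratio 0.97, interval 0.28 to 1.69). The lowest was Dnah3, of the inner arm, at 223 and 370 CPM (-0.73, interval -1.60 to 0.10). Over all ciliated barcodes 14 of 34 axonemal genes were called higher, beside 16.7% of all genes there. The axonemal median was 0.96 beside 0.39 for all genes tested, and this value moved with the admixture of the air pnd7 library.

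Of the 10 highest ratios at pnd7 in low-admixture cells, 5 were of listed immediate early genes (Zfp36, Btg2, Junb, Ier2 and Fos), which cells switch on within minutes of a stimulus. Of 10 immediate early and heat shock genes tested in low-admixture cells 7 were higher and none lower, beside 6.92% and 4.15% of all genes. Over all ciliated barcodes 7 of 12 were higher and none lower, beside 16.7% and 8.52%. The 18 listed genes summed to 6314, 13407, 8830 and 9472 CPM in the 4 libraries. Without the deepest cell of each library 3 of 5 tested were called higher, beside 6.40% of all genes. The sums were then 5232, 8215, 9115 and 9863 CPM, so that air pnd7 was the one low library and hyperoxia pnd7 lay below both pnd60 libraries. For age in air 5 of 12 were higher at pnd60, beside 15.2% of all genes. Without the deepest cells 10 of 12 were, beside 12.5%. After hyperoxia 3 of 14 were lower, beside 6.81%. Without the deepest cells 5 of 13 were higher and 1 lower, beside 15.4% and 6.95%. Nfkbia, the inhibitor of NF-κB and not on that list, was at 31.7 CPM in air (3 counts) and 579 CPM after hyperoxia (log2 ratio 4.19, interval 2.57 to 6.52), with 48.1% of the latter counts in 1 cell. Zfp36, which speeds the decay of cytokine mRNA, was at 42.2 and 557 CPM (3.72, interval 2.27 to 5.65), with 56.0% in 1 cell. Junb, at 338 and 1681 CPM, and Fos, at 591 and 2294 CPM, had 68.9% and 71.4% of their counts after hyperoxia in 1 cell. Other cells of the same libraries showed log2 ratios of 0.24 (Nfkbia), -0.09 (Zfp36), 0.17 (Junb) and 0.26 (Fos). With the mixed barcodes the ratios of Nfkbia and Zfp36 were 2.49 and 1.54.

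Slc23a2 and S100a6 were also among the 10 highest ratios at pnd7 in low-admixture cells. Slc23a2, a vitamin C transporter, was at 127 CPM in air and 757 CPM after hyperoxia in low-admixture cells (log2 ratio 2.58, interval 1.68 to 3.60), with 39.7% of the latter counts in 1 cell. Over all ciliated barcodes its ratio was 2.99, in other cells -0.29, and at pnd60 its levels were 718 and 620 CPM. Air pnd7 was thus the one low library. S100a6, a calcium-binding protein, was at 633 and 2450 CPM (1.95, interval 1.53 to 2.39) and then at 482 and 402 CPM at pnd60. Hyperoxia pnd7 was the one high library for that gene.

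Of 13 antioxidant genes tested in low-admixture cells at pnd7, 1 was called, and it was higher, whereas over all ciliated barcodes 3 of 17 were (Mt2, Mt1 and Prdx5), beside 6.92% and 16.7% of all genes, so both counts lay near the background. The one call in low-admixture cells was the metallothionein Mt2, at 729 CPM in air and 1748 CPM after hyperoxia (1.26, interval 0.85 to 1.69). Of its counts 63.7% were in 1 cell. Without the deepest cell of each library 0 of 9 were called, beside 6.98% of all genes. Mt1 was at 4192 and 7706 CPM (0.88, interval 0.70 to 1.06). Of the p53 targets 1 of 14 had counts enough to be tested. That was Mdm2, the ubiquitin ligase of p53, at 211 and 445 CPM (1.08, interval 0.27 to 1.93). It was called higher, beside 6.92% of all genes, and 1 gene says little of the list. Without the deepest cell of each library no p53 target had counts enough to be tested. Cdkn1a, which codes for the cell cycle inhibitor p21, had 8 counts in each pnd7 library (84.5 and 89.1 CPM) and was not tested.

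Genes lower after hyperoxia at pnd7 came largely from 1 air cell. Eln, Acta2, Col1a2, Vim, Tagln, Lgals1, Postn, Sparc and Col4a1, genes of fibroblasts and smooth muscle, were 9 of the 10 lowest in low-admixture cells. Eln had 399 counts at air pnd7, 99.7% of them in 1 cell, and 1 count at hyperoxia pnd7. For the 9 genes the share in 1 cell ran from 95.1 to 100%. The tenth was Xist, the RNA that coats the inactive X chromosome of females, at 549 and 44.5 CPM. Xist alone had counts in 4 of the 6 low-admixture cells of air pnd7 and Y-linked genes alone in 1, against 1 and 3 of 6 at hyperoxia pnd7, so the mix of female and male cells also moved with the group. Its part in the other ratios was not tested.

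At pnd60 few genes differed between hyperoxia and air, and here the comparison rested on 36 and 33 low-admixture cells. In all ciliated barcodes 94 of 4322 genes (2.17%) were called, 60 higher (1.39%) and 34 lower (0.787%). Centred on the median of all genes tested (0.15) there were 23 higher and 55 lower, and with totals that left out Sftpc, Scgb1a1 and hemoglobin 35 and 45, so the excess of higher calls turned. In low-admixture cells 38 of 3102 genes (1.23%) were called, 19 higher (0.613%) and 19 lower (0.613%). Of the low-admixture calls, whose cells are again part of all barcodes, 11 of 19 higher and 3 of 19 lower were also calls of all barcodes. These were 18.3% and 8.82% of the calls of all barcodes. In other cells 0.783% of 13795 genes were called, from far larger pools, so this share is not like for like either.

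None of 73 axonemal genes was called at pnd60 in low-admixture cells, beside 1.23% of all genes. Their median log2 ratio was -0.06 beside 0.02 for all genes. Over all ciliated barcodes 1 of 74 was called, Spag17, beside 2.17% of all genes, with a median of 0.23 beside 0.15 for all genes. In low-admixture cells the ratios ran from -0.65 for Dnaaf1, an assembly factor at 99.2 CPM in air and 63.1 CPM after hyperoxia (interval -1.52 to 0.20), to 0.79 for Spag17. Spag17, of the central pair, was at 174 and 301 CPM (interval 0.29 to 1.30), and over all barcodes its ratio was 1.11. Intraflagellar transport genes had a median of 0.07 over 25 genes with none called. The 20 other ciliated cell markers had a median of -0.12, and 1, AU040972, was called, beside 1.23% of all genes, at 318 CPM in air and 158 CPM after hyperoxia (-1.01, interval -1.52 to -0.51). Without the deepest cell of each library none of the 20 was called, beside 1.25% of all genes.

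None of 4 regulators of the cilium tested was called at pnd60 in low-admixture cells, beside 1.23% of all genes. Without the deepest cell of each library 1 of 4 was, as higher, beside 0.749% of all genes. Trp73, whose p73 protein lies upstream of Foxj1 in multiciliated cells, was at 109 and 198 CPM (0.86, interval 0.23 to 1.51). It was below 2-fold in low-admixture cells and past it in all ciliated barcodes, with a ratio of 1.03. Of 7 adenylate and creatine kinases tested 1 was called lower, beside 0.613% of all genes. It was Ak8, an adenylate kinase of cilia, at 133 and 66.0 CPM (-1.01, interval -1.83 to -0.23).

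Genes with the highest pnd60 ratios included regulators with counts spread over many cells. Nr1d1, a transcriptional repressor of the circadian clock, was at 157 CPM in air and 367 CPM after hyperoxia (log2 ratio 1.22, interval 0.73 to 1.74), and the top cell held 10.9% of its counts. In other cells its ratio was 0.04. Keap1, which holds the oxidant-responsive factor Nrf2 in check, was at 61.6 and 138 CPM (1.16, interval 0.35 to 2.03), with 10.4% in the top cell and a ratio of -0.05 in other cells. With the mixed barcodes these ratios were 0.83 and 0.81, below 2-fold.

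Other pnd60 ratios rested on single cells. Hspa5, the endoplasmic reticulum chaperone, was at 513 and 1139 CPM with 70.0% of the latter counts in 1 cell. Pdia4, a disulfide isomerase of the same compartment, was at 113 and 350 CPM with 45.1% in 1 cell. Sftpc was at 150 and 557 CPM with 53.1% in 1 cell, and as a gene used to choose the cells, by the rule and by the admixture limit, it is given as a description. Ccl6 and Chil3, products of macrophages and other myeloid cells, were the lowest ratios (-5.16 and -4.71), with 88.9% and 98.5% of their air counts in 1 cell. Ptprc, the leukocyte surface gene, was the most abundant gene of the immune list in the air pnd60 low-admixture cells, at 62 CPM.

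Cyp2a5, a cytochrome P450, was at 192 CPM in air and 37.3 CPM after hyperoxia at pnd60 (-2.36, interval -3.36 to -1.47), with counts in 16 and 8 cells. Its ratio in other cells was -4.42, and it had 0 counts in both pnd7 libraries of low-admixture cells. Ifitm1, an interferon-induced membrane protein, was at 339 and 57.4 CPM (-2.56, interval -3.33 to -1.86). With the mixed barcodes its ratio was -0.83. The direction was thus shared and the size was not.

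Club cell genes at pnd60 came mostly from the mixed barcodes. Scgb1a1, the secretoglobin of club cells, was at 126070 CPM in air and 63439 CPM after hyperoxia in all ciliated barcodes (log2 ratio -0.99). In low-admixture cells it was at 1228 and 2166 CPM (0.82, with a lower limit of 0.64). The limit that defines these cells counts Scgb1a1 and so caps its level, and the second ratio is a description of the cells kept. Bpifa1, an airway secretory protein, was at 3804 and 152 CPM in all ciliated barcodes, with 99.6% of the air counts in 1 cell, and had 3 and 1 counts in low-admixture cells. The plot of pnd60 ratios against the share of counts in 1 cell shows where such genes lie.

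**Figure D4:**
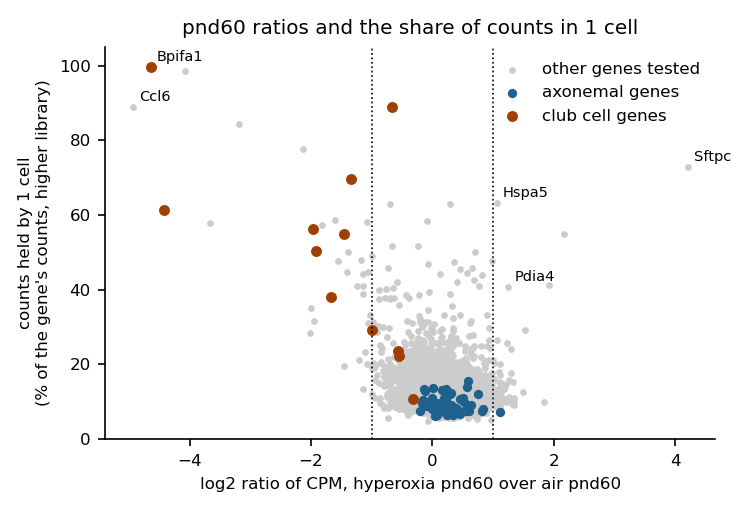
Each point is a gene tested in all ciliated barcodes at pnd60, with its log2 ratio of hyperoxia to air CPM against the percent of its counts, in the higher library, held by 1 cell, and dotted lines at 2-fold. Axonemal genes (blue) lie low and near 0, while Bpifa1 (99.6% in 1 cell) and Sftpc (72.9%) lie far out and high.

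No antioxidant gene passed 2-fold between the pnd60 groups in low-admixture cells. That was 0 of 19 tested, beside 1.23% of all genes, with a median of -0.10. Over all ciliated barcodes 1 of 21 was called, beside 2.17% of all genes there. It was Gsto1, a glutathione transferase, at 932 CPM in air and 424 CPM after hyperoxia (-1.14). In low-admixture cells Txnrd1, thioredoxin reductase, had the lowest ratio of the list, at 427 and 281 CPM (-0.60, with an upper limit of -0.21). The 14 p53 targets summed to 845, 1147, 944 and 956 CPM over the 4 libraries. Cdkn1a was at 65.0 CPM in air and 83.2 CPM after hyperoxia at pnd60, from 19 and 29 counts. The 22 secretory factors of the senescence list summed to 496, 434, 332 and 224 CPM, and 1 of them, Il10rb, had counts enough to be tested at pnd60, with a log2 ratio of 0.01 (interval -0.67 to 0.70).

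Age was then compared within each exposure. In low-admixture cells 416 of 1797 genes (23.1%) differed past 2-fold between pnd60 and pnd7 in air, 273 higher (15.2%) and 143 lower (7.96%) at pnd60. After hyperoxia 395 of 2056 genes (19.2%) did, 255 higher (12.4%) and 140 lower (6.81%). Among all ciliated barcodes the shares were 21.7% of 3118 genes in air (14.4% higher, 7.28% lower) and 20.7% of 2746 genes after hyperoxia (12.5% higher, 8.23% lower). Centred on the median of all genes tested, the calls in air were 299 higher and 328 lower in place of 450 and 227. In other cells, again in far larger pools, the shares were 26.1% and 29.8%. In air 71 of the 143 lower calls had at least 50% of their pnd7 counts in 1 cell, as 20 of the 140 had after hyperoxia, against 3 and 2 of the higher calls. Without the deepest cell of each library the calls in air were 174 higher and 73 lower of 1396 genes. The age comparisons shared no library. Of the genes higher at pnd60, 86 were called in both, 31.5% of the calls in air and 33.7% of those after hyperoxia, and of the genes lower 43 were, 30.1% and 30.7%. In 5 genes the calls went opposite ways.

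In low-admixture cells axonemal genes were called higher at pnd60 at shares near those of all genes in both age comparisons. There 12 of 62 tested were called higher in air and 13 of 66 after hyperoxia, beside 15.2% and 12.4% of all genes, and 1 was lower, Spag17 in air. The medians were 0.52 in air and 0.09 after hyperoxia, beside 0.21 and 0.08 for all genes. Without the deepest low-admixture cell of each library, 6 of 56 were higher and 1 lower in air, beside 12.5% and 5.23% of all genes. Their median was 0.07 beside 0.09 for all genes, so the air median rested on those cells. After hyperoxia 11 of 62 were then higher and 1 lower, beside 15.4% and 6.95%, with a median of 0.23 beside 0.13. Including the mixed barcodes, 21 of 68 were higher and none lower in air, and 11 of 71 were higher and 3 lower after hyperoxia, beside 14.4% of all genes higher in air and 12.5% higher and 8.23% lower after hyperoxia. Mixed barcodes were 52 of the 58 at air pnd7. Called in both comparisons were 4 genes. Dnah12, an inner arm heavy chain, was at 52.8 and 66.8 CPM at pnd7 and 233 and 192 CPM at pnd60 (log2 ratios 2.14 and 1.52). Spag16 was at 169 and 89.1 CPM at pnd7 and 404 and 402 CPM at pnd60 (1.26 and 2.17). Dnaaf3, an assembly factor, and Cfap74, of the central pair, were the others, the former with a hyperoxia interval that included 0 (-0.22 to 2.53). The pnd7 values of these genes rest on 5 to 16 counts each.

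Of the regulators 2 of 3 tested were called higher at pnd60 in air and 1 of 4 after hyperoxia, and of the centriole genes 2 of 3 and 1 of 3, with none lower, beside 15.2% of all genes higher in air and 12.4% after hyperoxia. With so few genes tested these counts say little of either list. Without the deepest cell of each library they were 1 of 2 and 2 of 4 regulators and 2 of 3 and 0 of 3 centriole genes. All genes higher in that setting were 12.5% in air and 15.4% after hyperoxia. Rfx2 was higher at pnd60 by 1.46 in air (interval 0.24 to 2.97) and by 1.39 after hyperoxia (0.08 to 3.08) on the log2 scale. Ccdc78, of the deuterosome pathway, was at 137 and 245 CPM at pnd7 and 571 and 519 CPM at pnd60 (2.06 and 1.08). Tubb4b, the main β-tubulin of the axoneme, was at 2756 and 3664 CPM at pnd7 and 2336 and 1989 CPM at pnd60 (-0.24 and -0.88).

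Antioxidant genes differed with age in both directions. Gclc, the catalytic subunit of the enzyme that limits glutathione synthesis, was at 106 and 178 CPM at pnd7 and 612 and 531 CPM at pnd60 (log2 ratios 2.54 and 1.58). Gstm1, a glutathione transferase, was at 581 and 824 CPM and then 2404 and 2083 CPM (2.05 and 1.34). Both genes were also higher at pnd60 in other cells, by 1.90 and 1.68 for Gclc and by 1.75 and 1.90 for Gstm1. Txnrd1 was higher in ciliated cells (1.25 and 1.34) and not in other cells (-0.16 and -0.41). Lower at pnd60 in both comparisons were Mt1, at 1973 and 1555 CPM (-1.09 and -2.31), and Prdx2, a peroxiredoxin abundant in red blood cells, at 174 and 181 CPM (-1.12 and -1.30). Hbb-bs, an adult β-globin, was lower as well (-5.03 and -5.93), and lower in other cells (-3.85 and -4.64). In all, 7 of 19 antioxidant genes were called higher and 2 lower in air, and 3 higher and 4 lower of 19 after hyperoxia, beside 15.2% and 7.96% of all genes in air and 12.4% and 6.81% after hyperoxia. The 2 lower in air and the 3 higher after hyperoxia lay near those shares. Including the mixed barcodes, these were 9 and 3 of 21 in air, beside 14.4% and 7.28% of all genes, and 5 and 4 of 20 after hyperoxia, beside 12.5% and 8.23%. Without the cell with the most counts in each library the low-admixture counts were 4 and 3 of 18 in air and 4 and 4 of 19 after hyperoxia. The shares of all genes in that setting were 12.5% and 5.23% in air and 15.4% and 6.95% after hyperoxia.

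Cdkn1c, an imprinted gene that codes for the cell cycle inhibitor p57, was at 1563 and 2728 CPM at pnd7 and 404 and 422 CPM at pnd60 in low-admixture cells. The log2 ratios were -1.95 in air (interval -2.31 to -1.59) and -2.69 after hyperoxia (-3.00 to -2.39), and with the mixed barcodes -1.68 and -2.71. Other cells showed -2.86 and -2.63 at lower levels, 112, 100.3, 15.5 and 16.2 CPM. The 4 low-admixture values thus formed a high pnd7 pair and a low pnd60 pair. Ccnd2, the cyclin D2 gene, was at 591 and 1091 CPM at pnd7 and 321 and 178 CPM at pnd60 (-0.88 and -2.62), whereas in other cells its ratios were 0.21 and 0.29.

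**Figure D5:**
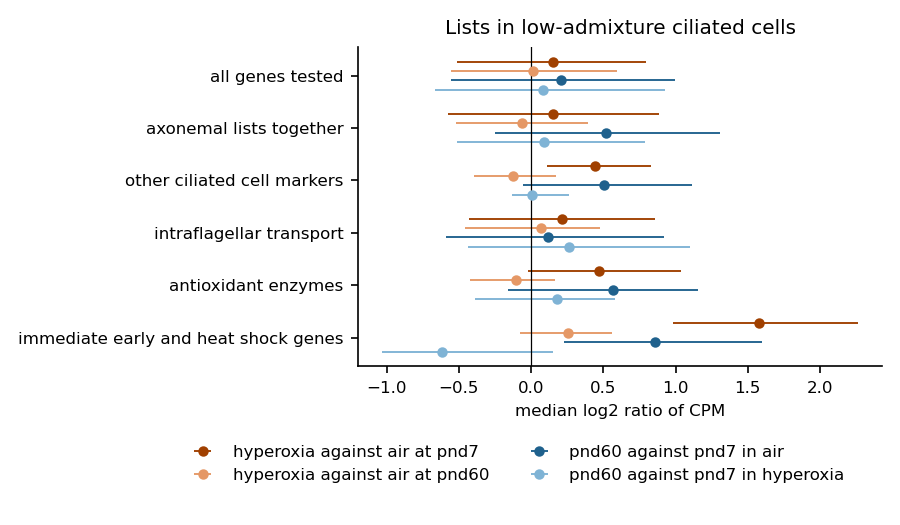
Median log2 ratio of CPM over the tested genes of 6 lists in low-admixture ciliated cells, by comparison, with bars from the median lower to the median upper limit of the genes' 95% intervals. Axonemal medians lie at 0.15 and -0.06 for hyperoxia against air, and the immediate early and heat shock list stands farthest from 0 at pnd7 (1.58).

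Some genes of the club cell list were also found in low-admixture ciliated cells. Cyp2f2, a P450 of club cells, was at 1373, 1459, 3085 and 2425 CPM and Aldh1a1, a retinal dehydrogenase, at 1235, 1904, 2917 and 2304 CPM, well above their levels in the other cells (12.3 to 182 CPM for Cyp2f2 and 10.4 to 201 CPM for Aldh1a1). Both were found in 35 of 36 and 33 of 33 low-admixture cells at pnd60. The 12 club cell genes summed to 4023, 5100, 7978 and 7544 CPM in low-admixture cells, and to 102699, 5100, 153191 and 75776 CPM in all ciliated barcodes. The admixture limit counts these genes and so caps the first series, which is a description of the cells kept. Basal and neuroendocrine genes summed to 0, 0, 3 and 0 CPM in low-admixture cells, with Krt5 at 0 counts in each library. In other cells they summed to 2.26, 0.593, 1.33 and 1.37 CPM, so they were low there as well.

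The marker lists of other cell types, which cover a part of those cells' genes only, were at these levels in low-admixture cells. The limit that defines low-admixture cells counts the genes of these lists, and the rule also limits Sftpc. Both cap these levels in advance, while the other cells include the type II cells themselves. The sums and their contrast with other cells are thus a description of the cells kept and no test of their purity. Type II cell genes summed to 338, 423, 369 and 941 CPM, with Sftpc the most abundant in each library, against 52941, 63104, 38515 and 37981 CPM in other cells. Mesenchymal genes summed to 1995, 0, 65 and 60 CPM, led at air pnd7 by Col1a2, which came almost wholly from the 1 cell described above. Endothelial genes summed to 0, 22, 62 and 155 CPM and immune genes to 11, 11, 181 and 95 CPM, so both were near 0 at pnd7. Red blood cell genes summed to 1584, 1158, 65 and 17 CPM, led by Hbb-bs. The type I list, at 834, 1269, 869 and 927 CPM, and the mesothelial list, at 275, 557, 369 and 442 CPM, were led by Emp2 or Hopx and by Krt19, which airway epithelium also expresses, and Krt19 was the one mesothelial gene with a count. What part these counts have in the ratios above was not tested.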

How the data were processed

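The authors deposited raw counts (unique molecular identifiers per gene and barcode, filtered matrices) for each of 5 libraries, with no normalization. The submitters' processing notes name Cell Ranger, the mm10 genome and Seurat 3.2.1, and the matrix header gives software version 3.1.0. The annotation was not given in the sources used here. The 4 whole-lung libraries held 4243, 2664, 5128 and 5632 barcodes.

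Barcodes were filtered and selected as stated in the report. Doublets were kept. For each library the selected cells were pooled, and a level is the share of their counts, scaled to CPM. Ciliated barcodes held 272183, 89804, 510462 and 518434 counts and low-admixture cells 94715, 89804, 292419 and 348496, in the order air pnd7, hyperoxia pnd7, air pnd60 and hyperoxia pnd60, and these totals set the intervals. Intervals are exact Poisson for levels, Clopper-Pearson for shares, and conditional binomial for ratios. A count of 0 was set to 3 counts in a ratio, which is then a bound. The ratio code was tested on simulated counts. Tables were handled with pandas 2.3.3 and numpy 2.4.6 in Python 3.11.15, intervals came from scipy 1.17.1, doublet calls from scanpy 1.11.5 and figures from matplotlib 3.10.9.

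Genes named are the 6 markers, the extreme members of the gene lists, the 10 highest and lowest ratios of each comparison and the 20 genes leading over other cells. A few others (Cdkn1a, Ccno, Deup1 and further members of lists) were named after their values were seen. Members and lists were chosen with earlier results of these data known, and the low-admixture limits were chosen after seeing the data. The secretory factors were chosen by the study on lungs of this model, so that list is not independent. Of 391 listed names 389 were found among 42454 features.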

Additional observations from a re-analysis of the deposited data

Results flagged for a closer look

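In all ciliated barcodes Sftpc went in opposite ways at the 2 ages, with a log2 ratio of hyperoxia to air of -4.34 at pnd7 and 4.20 at pnd60. The rule itself limits Sftpc to under 2% of counts, which removed 17, 0, 3 and 2 barcodes in the order air pnd7, hyperoxia pnd7, air pnd60 and hyperoxia pnd60, so these ratios are of a value the rule truncates and are a description. At pnd7 the air value came from 1107 counts, 17 of them in low-admixture cells, and at pnd60 1 cell held 72.9% of the hyperoxia counts. In low-admixture cells AU040972, a transcript on the list of ciliated cell markers, was at 1.66 at pnd7 and -1.01 at pnd60, and 1 cell held 87.7% of its counts at hyperoxia pnd7. Xist was at -3.62 at pnd7 and 1.77 at pnd60 in the same cells, and it differs between female and male cells. In these 3 genes the samples of each age moved opposite ways, and the difference between ages was not tested. Outside the cell filter, 28 barcodes met the marker rule (11, 6, 3 and 8 in the order air pnd7, hyperoxia pnd7, air pnd60 and hyperoxia pnd60), of which 12 had too few genes and 16 too many, and none was used.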

How the results depend on the processing

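No paired analysis was possible because there was 1 library a group. Libraries are in the order air pnd7, hyperoxia pnd7, air pnd60, hyperoxia pnd60.

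Shares of ciliated cells moved as follows. With 2 markers they were 3.73% and 1.30% at air pnd7 and air pnd60, and 1.04% in place of 0.482% at hyperoxia pnd7 (13 and 6 cells). At air pnd7 the share was 1.82% with 4 markers, 3.25% with no Sftpc limit, 0.953% with Sftpc under 0.5% and with the limit on other markers without hemoglobin, and 0.260% with that limit in full. Without cells that had 3 or more markers of another list, the club cell list aside, the shares were 0, 0.0803, 0.364 and 0.210%. Air pnd7 comparisons then gave no value. Thinned to 2000 counts, with 610, 158, 1976 and 1904 shallower cells left out, they were 1.88%, 1.53% and 1.26% at air pnd7 and both pnd60 libraries.

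The axonemal median moved at pnd7 to 0.090 (2 markers), 0.15 (low admixture) and 0.27 (the limit without hemoglobin). At pnd60 it moved to -0.30 (without cells with 3 or more markers of another list, club cells aside) and -0.22 (thinned). For age after hyperoxia it moved to 1.01 (2 markers).

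Counts of genes past 2-fold moved most. For hyperoxia at pnd7 they were 202 (Sftpc under 0.5%), 58 (thinned), 958 and 136 (minimum of 20 and 100 counts), 187 (without the deepest cell of each library), 72 (low admixture) and 95 (limit without hemoglobin). At pnd60 they were 152 (2 markers), 21 (other lists' markers), 10 (thinned), 159 (mean of cells' CPM), 505 and 32 (minimum of 20 and 100) and 38 (both limits). For age in air they were 153 (thinned), 1125 (mean of cells), 1603 and 315 (minimum of 20 and 100), 416 and 449 (both limits). For age after hyperoxia they were 1190 (2 markers), 76 (other lists' markers), 45 (thinned), 1007 (mean of cells), and 1546 and 218 (minimum of 20 and 100). The cause was not tested, except that a higher minimum or thinning tests fewer genes. The number of cells limited pnd7 most, where 6 and 6 low-admixture cells were found and 24 of 84 axonemal genes had counts enough to be tested in low-admixture cells. No axonemal median was given where fewer than 3 genes were tested. Of the other values set beside these, 47 planned axonemal medians, 33 counts and 20 shares stayed within the spread allowed. Among these medians, that for age after hyperoxia (-0.12) was 0.27 with the mean of cells' CPM and 0.075 without the deepest cell of each library, so its sign was not stable. That for age in air (0.70) was 1.29 with the mean of cells' CPM and 1.20 thinned. That for hyperoxia at pnd60 (0.23) was 0.011 with the mean of cells' CPM.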

Other observations

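Antigen presentation genes were low in ciliated cells relative to the rest of the lung. The 22 genes of that list summed to 433, 802, 646 and 623 CPM in low-admixture cells and to 2124, 2221, 7766 and 8227 CPM in other cells, in the order air pnd7, hyperoxia pnd7, air pnd60 and hyperoxia pnd60. B2m, the light chain of class I molecules, was at 137, 122, 140 and 158 CPM in low-admixture cells and 457, 528, 1696 and 1826 CPM in other cells, so it was higher at pnd60 in the latter. Cd74, the class II invariant chain, was at 95.0, 546, 321 and 253 CPM, and 79.6% of its hyperoxia pnd7 counts came from 1 cell.

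Antioxidant genes summed to 11455, 18340, 13115 and 11748 CPM in low-admixture cells, above the 4351, 4751, 4546 and 4538 CPM of other cells, with Mt1 or Gstm1 the most abundant. Pcp4l1 had 0 counts in the 6 low-admixture cells of air pnd7 and 89.1, 711 and 488 CPM in the other libraries, a log2 ratio of at least 4.49 between the ages in air against a floor of 3 counts in the pnd7 library. After hyperoxia the ratio was 2.45.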
